A study of Homo sapiens with 4 samples.

Results

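Transcripts of 31 genes that encode collagens, laminins and other proteins of the extracellular matrix were examined in A549 cells, a human lung adenocarcinoma line, with and without doxycycline-driven GATA4. The genes were taken by symbol from a table of 23143 gene symbols, and all 31 were found. The DOX group held 2 libraries of A549 cells given doxycycline, labelled as overexpressing GATA4, a DNA-binding regulator of heart and gut development. The noDOX group held 2 libraries of A549 cells with GATA4 at its normal level, which the design text ties to a vehicle. Neither the promoter and cloning of the inducible gene nor the length of treatment is given in the sources used here. No library with doxycycline but without the inducible GATA4 was analysed here, so the drug and the factor cannot be told apart. The series title links the study to lung cancers deficient in GATA4 and to inhibition of the type I TGF-β receptor.

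The matrix around epithelial cells has a basement membrane, a sheet in which laminin trimers and networks of type IV collagen are linked by nidogens and the proteoglycans perlecan and agrin. Beyond it lies an interstitial matrix of fibrillar collagens, fibronectin and matricellular proteins, stiffened by lysyl oxidases. Collagens and laminins are secreted as trimers of separately encoded chains, and TGF-β is a known inducer of many of these genes in fibroblasts and epithelial cells.

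Values are gene-level FPKM, fragments scaled to transcript length and to the mapped fragments of the library. Levels of genes of unlike length can be set side by side only roughly, since differences between libraries still followed transcript length, as given below. The part of length in the ratios and shares between genes was not tested. The read depth is unknown. GATA4 was at 75.0 and 48.0 FPKM in DOX libraries 1 and 2 and at 12.2 and 14.5 FPKM in noDOX libraries 1 and 2, a log2 difference of 2.09 (SE 0.30; limma, adjusted p = 0.289). The line was recognisable, with KRT8 at 2339 to 5245 FPKM over the libraries, ALDH1A1 at 4368 to 8756 FPKM, and CDKN2A listed at 0 in all 4. All 12 epithelial and A549 markers passed the filter, with a summed level of 21285 and 26272 FPKM in DOX libraries and 18919 and 14218 FPKM in noDOX libraries. Of the 12, 3 had both DOX libraries higher (AKR1B10, AKR1C1 and ALDH1A1) and 3 had both lower (KRT7, ALDH3A1 and EPCAM). Over all genes tested, 14.7% had both higher and 17.3% had both lower. EPCAM was at 3.83 and 3.08 FPKM in DOX libraries and at 8.27 and 13.7 FPKM in noDOX libraries. Of 6 blood markers, only CD68 and CD14 passed 1 FPKM, and the list summed to 9.02 and 33.1 FPKM in DOX libraries and to 29.9 and 26.8 FPKM in noDOX libraries, with PTPRC and CD3E at or near 0. The part of these markers in the results was not tested. Fibroblast markers were largely missing. Of 13 such markers 9 were under 1 FPKM in every library, DCN and FAP were listed at 0 in all 4, and PDGFRB reached 0.0208 FPKM at most. Their summed level was 59.4 and 43.0 FPKM in DOX libraries and 43.4 and 64.9 FPKM in noDOX libraries, most of it from FBLN1 and ACTA2, and 6 of the markers (DCN, LUM, POSTN, FBLN1, FBLN2 and MFAP5) are themselves matrix genes. Endothelial markers were under 1 FPKM in all libraries. In bulk RNA, fewer cells that make a transcript and less transcript per cell cannot be told apart.

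Libraries of the same group differed in a way shared by many matrix genes. In 23 of the 24 matrix genes tested, noDOX library 2 was above noDOX library 1, with a median difference of 0.92 on the log2(FPKM + 1) scale against -0.02 over all genes tested. DOX library 1 was above DOX library 2 in 14 of the 24, with a median difference of 0.38 against -0.02 over all genes tested. Matrix transcripts are long, with a median of 6672 bases over these 24 genes and 3266 bases over 11102 tested genes with a length. Across those 11102 genes both within-group differences were larger for longer transcripts, with a Spearman rho of 0.45 for DOX library 1 minus DOX library 2 and 0.45 for noDOX library 2 minus noDOX library 1. These are descriptions across genes that share the same libraries, and genes are not independent replicates. The labels do not say that the libraries of a group came from separate cultures, and p-values then cover the variation among these 4 libraries alone, possibly technical. The part of the length pattern in the differences between groups was not tested gene by gene, and values with a length trend removed are given at the end of the account of the 31 genes.

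**Figure D1:**
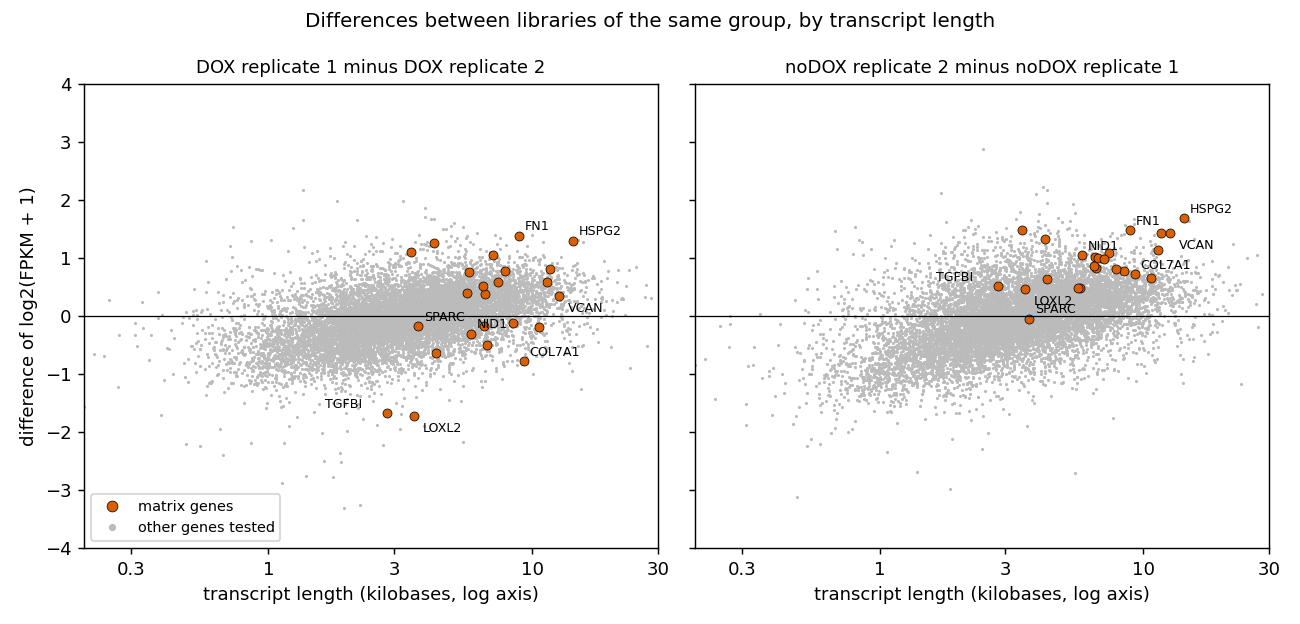
Difference of log2(FPKM + 1) between the 2 libraries of a group (vertical axis) against transcript length in kilobases (horizontal log axis), for DOX on the left and noDOX on the right; orange points are matrix genes and grey points are other tested genes. In the noDOX panel 23 of 24 matrix genes lie above 0, and in the DOX panel 14 do, with TGFBI and LOXL2 far below 0.

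No matrix gene rose or fell past the threshold. Tests were run with limma on log2(FPKM + 1) over the 12504 genes that averaged 1 FPKM or more, at a Benjamini-Hochberg adjusted p of 0.05, and 24 of the 31 genes passed this filter. Of the 24, 0 were called, where 0.0880% of all genes tested were called (0.0240% rose and 0.0640% fell). An unadjusted p under 0.05 (limma) was found in 4 (16.7%), against 6.34% of all genes tested. These 4 include SPARC, which passed the filter only through the DOX libraries and so had to differ. The mean log2 value was higher with doxycycline in 9 genes and lower in 15 (62.5%), beside 56.1% lower over all genes tested. Both DOX libraries lay above both noDOX libraries in 2 genes, SPARC among them (14.7% of all genes tested), and below both in 6 genes (17.3%). The groups thus did not overlap in 8 of 24 genes, a share close to the 32.0% of all genes tested. The median log2 difference of the 24 was -0.29, beside -0.04 over all genes tested. It was -0.35 without DOX library 1, 0.02 without DOX library 2, -0.78 without noDOX library 1 and 0.18 without noDOX library 2, so its sign depended on the libraries used. An exact permutation of 2 against 2 libraries cannot give a two-sided p below 0.33.

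**Figure D2:**
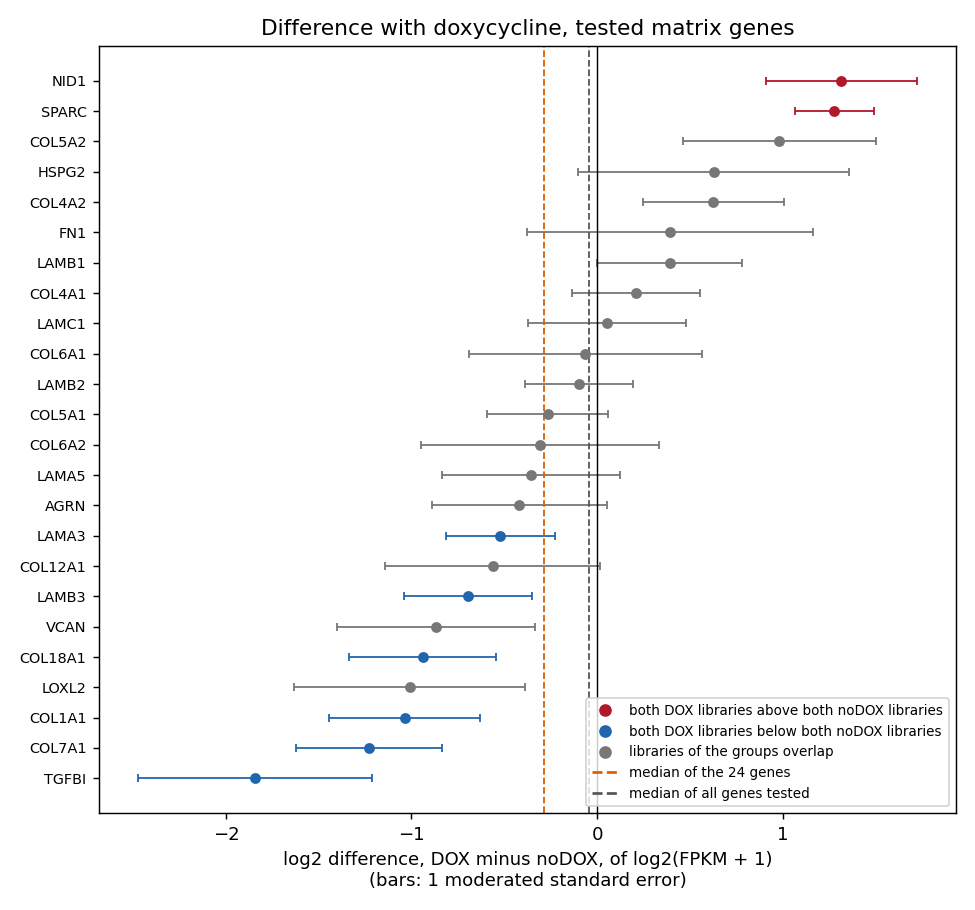
Log2 difference, DOX minus noDOX, of log2(FPKM + 1) for the 24 matrix genes tested, with bars of 1 moderated standard error; colour shows whether the libraries of the groups overlap. NID1 and SPARC lie to the right at 1.32 and 1.28, TGFBI and COL7A1 to the left at -1.84 and -1.23, and the medians of the 24 genes and of all genes tested are dashed.

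The 8 genes with separate groups are a basement membrane linker, a matricellular protein, an adhesive protein, 3 collagens and a pair of laminin chains. SPARC, which encodes a collagen-binding matricellular protein (osteonectin), was at 2.78 and 3.27 FPKM in DOX libraries 1 and 2 and at 0.684 and 0.633 FPKM in noDOX libraries 1 and 2. The libraries within each group were close together, and the groups were far apart. Its mean was 4.60 times as high with doxycycline, with a log2 difference of 1.28 (SE 0.21; limma, adjusted p = 0.388). SPARC passed the filter only through the DOX libraries, and it shares 381 exon bases with an antisense gene. NID1, which encodes nidogen-1, the bridge between laminin and type IV collagen, was at 4.13 and 5.35 FPKM in DOX libraries and at 0.596 and 2.30 FPKM in noDOX libraries. Both DOX values were higher, although the noDOX libraries differed from each other 3.86 times. The log2 difference was 1.32 (SE 0.41; limma, adjusted p = 0.671).

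TGFBI, an adhesive protein that binds collagens and integrins and is named for its induction by TGF-β, was at 20.2 and 66.8 FPKM in DOX libraries 1 and 2, against 113 and 162 FPKM in noDOX libraries 1 and 2. Every DOX value was below every noDOX value, and DOX library 1 was by far the lowest. The log2 difference was -1.84 (SE 0.63; limma, adjusted p = 0.743). Leaving out DOX library 1 brought it to -1.01 and leaving out DOX library 2 to -2.68, both past 1.5 times from the full value on the linear scale. COL7A1, which forms the anchoring fibrils that fasten the epidermal basement membrane, was at 5.76 and 10.6 FPKM in DOX libraries and at 15.1 and 25.7 FPKM in noDOX libraries. The groups were separate, at a log2 difference of -1.23 (SE 0.39; limma, adjusted p = 0.691).

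The 250 bases before the RefSeq transcription start of SPARC and NID1, which had the higher DOX values, and of TGFBI and COL7A1, which had the lowest log2 differences, are given 5′ to 3′ on the coding strand (build GRCh38.p14), so that the starts of the genes with the widest differences can be compared. Capitals mark exact matches on either strand to 3 motifs. A GATA word is AGATAA, or else AGATAG, or else TGATAA, or else TGATAG. A GC box is GGGCGG. The last motif is TATAAA. SPARC lies on the minus strand at chr5:151686916-151687165, NID1 on the minus strand at chr1:236065091-236065340, TGFBI on the plus strand at chr5:136028738-136028987 and COL7A1 on the minus strand at chr3:48595330-48595579.
SPARC: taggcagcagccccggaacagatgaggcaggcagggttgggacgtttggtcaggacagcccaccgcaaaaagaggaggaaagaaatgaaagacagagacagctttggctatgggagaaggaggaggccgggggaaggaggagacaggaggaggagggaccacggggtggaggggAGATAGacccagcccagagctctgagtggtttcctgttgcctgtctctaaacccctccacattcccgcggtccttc
NID1: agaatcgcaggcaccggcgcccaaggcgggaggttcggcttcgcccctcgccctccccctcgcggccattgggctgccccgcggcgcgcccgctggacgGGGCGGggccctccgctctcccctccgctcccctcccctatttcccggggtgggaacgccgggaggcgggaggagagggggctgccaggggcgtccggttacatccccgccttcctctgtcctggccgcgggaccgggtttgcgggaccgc
TGFBI: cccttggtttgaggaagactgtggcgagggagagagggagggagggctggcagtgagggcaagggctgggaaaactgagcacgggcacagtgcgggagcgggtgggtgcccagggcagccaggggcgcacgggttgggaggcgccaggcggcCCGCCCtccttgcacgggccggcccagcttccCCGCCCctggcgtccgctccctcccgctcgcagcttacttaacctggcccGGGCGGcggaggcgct
COL7A1: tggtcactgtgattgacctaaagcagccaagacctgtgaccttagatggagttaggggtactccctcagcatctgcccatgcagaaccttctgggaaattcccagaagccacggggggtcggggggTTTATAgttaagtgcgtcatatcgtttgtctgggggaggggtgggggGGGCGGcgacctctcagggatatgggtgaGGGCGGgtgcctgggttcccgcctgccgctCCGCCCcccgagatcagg
SPARC holds 1 GATA word and no GC box. NID1 holds 1 GC box, TGFBI holds 3, and COL7A1 holds 3 with 1 TATAAA. Taking the first listed window of each of 27305 genes, 22.9% hold a GATA word, 42.3% a GC box and 11.1% a TATAAA. Of the 24 matrix genes with a window, counted in the same way, 2 hold a GATA word (SPARC and COL17A1), 20 a GC box and 4 a TATAAA, and 0 hold GTCT followed directly by AGAC, the SMAD palindrome, which 0.176% of all 27305 hold. A match is a description of the letters and not of binding.

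Among the 5 fibrillar collagen genes the chains were present at very unequal levels. COL1A1, the major chain of type I collagen, was at 1.76 and 2.88 FPKM in DOX libraries 1 and 2 and at 3.76 and 8.46 FPKM in noDOX libraries 1 and 2, with separate groups and a log2 difference of -1.04 (SE 0.41; limma, adjusted p = 0.814). Its partner chain COL1A2 was at 0.00920 FPKM in DOX library 1 and 0.0176 FPKM in noDOX library 2 and was listed at 0 in the other two libraries. COL3A1, the chain of type III collagen, was at 0.272 and 0.0551 FPKM in DOX libraries and at 0.155 and 1.14 FPKM in noDOX libraries, below the filter.

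Both chains of type V collagen, which nucleates fibrils, were present, and COL5A2 was the more abundant. COL5A2 was at 61.1 and 29.1 FPKM in DOX libraries and at 14.6 and 29.8 FPKM in noDOX libraries. DOX library 2 and noDOX library 2 were nearly equal, so the groups overlapped, and the log2 difference was 0.98 (SE 0.52; limma, adjusted p = 0.947). COL5A1 was at 1.43 and 1.64 FPKM in DOX libraries and at 1.33 and 2.98 FPKM in noDOX libraries. The ratio of COL5A2 to COL5A1 within a library was therefore 42.6 and 17.8 in DOX libraries and 10.9 and 9.97 in noDOX libraries, with both DOX ratios the higher, a pair chosen after the values were seen. COL12A1, a fibril-associated collagen, was at 1.90 and 0.665 FPKM in DOX libraries and at 0.982 and 4.33 FPKM in noDOX libraries, which overlapped.

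Of the 4 basement membrane collagen genes, COL7A1 and COL18A1 had lower DOX values and the type IV pair overlapped. COL18A1, whose C-terminal fragment is endostatin, was at 17.0 and 19.3 FPKM in DOX libraries 1 and 2 and at 24.8 and 51.2 FPKM in noDOX libraries 1 and 2. The DOX libraries were close to each other and below both noDOX libraries (log2 difference -0.94, SE 0.39; limma, adjusted p = 0.854), and the gene shares 1401 exon bases with SLC19A1 on the other strand. COL4A1 was at 5.46 and 3.98 FPKM in DOX libraries and at 2.70 and 5.53 FPKM in noDOX libraries. COL4A2 was at 26.8 and 18.4 FPKM in DOX libraries and at 10.2 and 19.3 FPKM in noDOX libraries. The order of the libraries was thus similar for both chains, with noDOX library 1 the lowest.

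COL4A1 and COL4A2 encode chains of the same trimer and lie head to head, and the 126 bases between their RefSeq starts serve as the upstream sequence of both, which is why they are shown. The stretch lies at chr13:110307158-110307283 (GRCh38.p14, plus strand, the coding strand of COL4A2), and capitals mark its 1 GC box.
COL4A1 to COL4A2: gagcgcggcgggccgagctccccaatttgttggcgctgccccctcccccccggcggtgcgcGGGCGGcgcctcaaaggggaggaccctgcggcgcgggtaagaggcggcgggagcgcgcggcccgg
Although the genes share this interval, their ratio differed between groups more than within them. COL4A1 over COL4A2 was 0.204 and 0.216 in DOX libraries and 0.265 and 0.286 in noDOX libraries, with means of 0.210 ± 0.009 in DOX libraries and 0.276 ± 0.015 in noDOX libraries (SD, n = 2 each). No test was run on this ratio.

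Collagen VI, which forms beaded filaments next to basement membranes, followed the order of the libraries more than the groups. COL6A1 was at 14.4 and 5.49 FPKM in DOX libraries 1 and 2 and at 5.60 and 15.5 FPKM in noDOX libraries 1 and 2. COL6A2 was at 21.4 and 9.40 FPKM in DOX libraries and at 10.3 and 30.5 FPKM in noDOX libraries. In both genes DOX library 1 and noDOX library 2 were high and the other libraries low, and the groups overlapped. The ratio of COL6A1 to COL6A2 was steadier, at 0.674 and 0.584 in DOX libraries and 0.543 and 0.509 in noDOX libraries. Both DOX ratios were the higher, and this ratio was not tested. COL6A3, the third chain of the trimer, was at 0.431 and 0.0425 FPKM in DOX libraries and at 0.00926 and 0.0134 FPKM in noDOX libraries, far under the filter. The transmembrane collagens were also under it, COL17A1 of the hemidesmosome at 0.236 to 0.678 FPKM and COL13A1 at 0 to 0.158 FPKM over the 4 libraries.

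**Figure D3:**
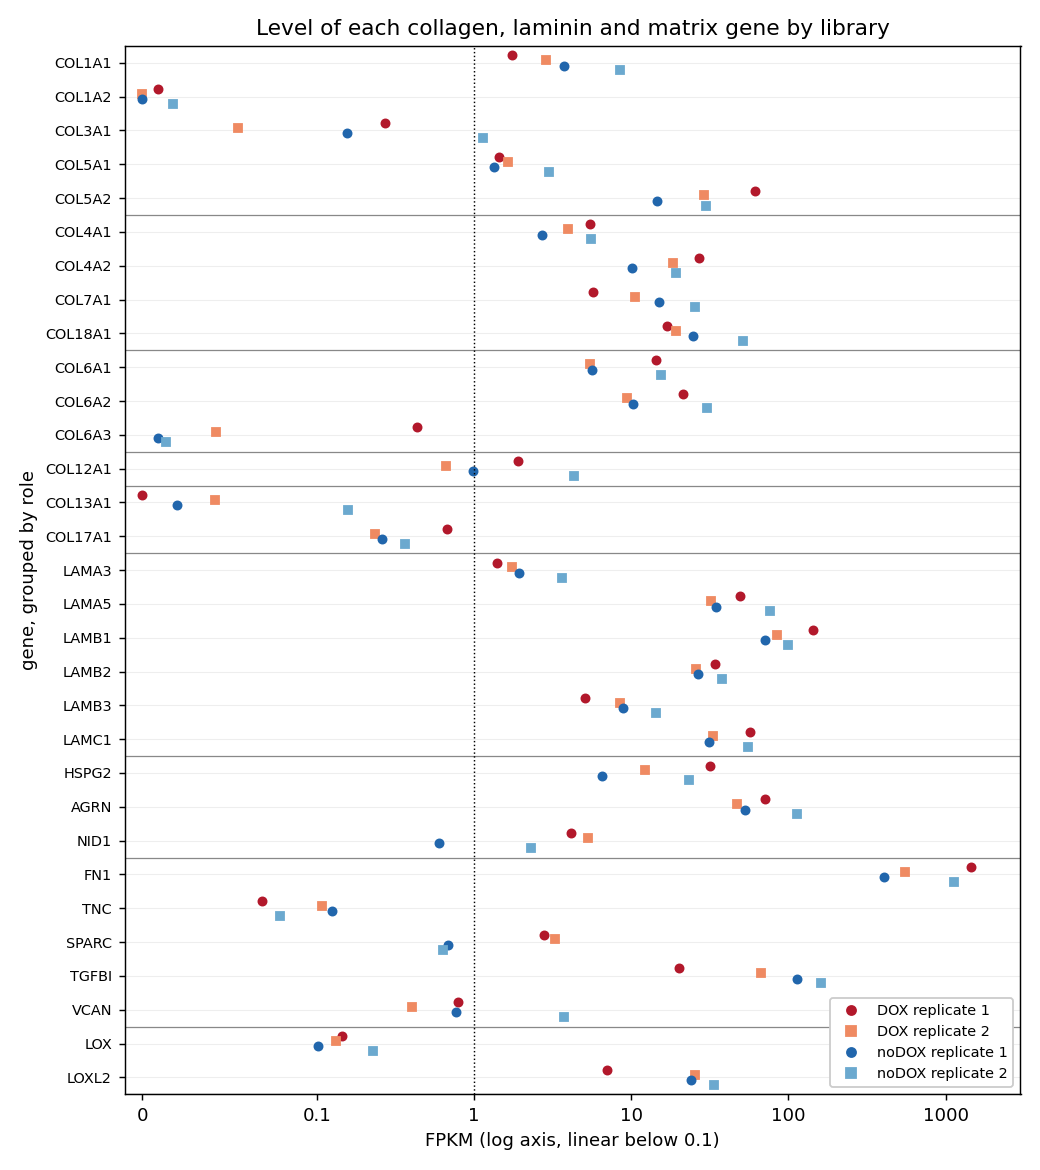
FPKM of each of the 31 matrix genes in each library (horizontal axis, logarithmic above 0.1 and linear below it), with genes grouped by role and the filter of 1 FPKM dotted. FN1 lies highest, SPARC has both DOX libraries at 2.78 and 3.27 FPKM and both noDOX libraries under 1, and COL6A1 and COL6A2 show DOX library 1 and noDOX library 2 side by side at the high end.

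LAMB1, the β1 chain and the most abundant of the 6 laminin genes by mean level, was at 144 and 85.1 FPKM in DOX libraries 1 and 2 and at 71.2 and 100.1 FPKM in noDOX libraries 1 and 2. LAMC1, the γ1 chain with which it assembles, was at 57.0 and 33.1 FPKM in DOX libraries and at 31.4 and 55.7 FPKM in noDOX libraries. Both sets overlapped, while the ratio of LAMB1 to LAMC1 was 2.53 and 2.57 in DOX libraries and 2.27 and 1.80 in noDOX libraries. LAMA5, the α5 chain of adult epithelial basement membranes, was at 49.3 and 32.4 FPKM in DOX libraries and at 34.4 and 76.7 FPKM in noDOX libraries. LAMB2, the β2 chain, was at 34.1 and 25.8 FPKM in DOX libraries and at 26.7 and 37.9 FPKM in noDOX libraries. Neither LAMA5 nor LAMB2 separated the groups, with log2 differences of -0.36 (SE 0.48) and -0.10 (SE 0.29), and under a common sum scaling LAMB2 changed direction.

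LAMA3 and LAMB3, which encode the α3 and β3 chains of epithelial laminins, both had lower DOX values. LAMB3 was at 5.08 and 8.44 FPKM in DOX libraries 1 and 2 and at 8.82 and 14.3 FPKM in noDOX libraries 1 and 2. DOX library 2 and noDOX library 1 were separated by a narrow margin, and the log2 difference was -0.70 (SE 0.34; limma, adjusted p = 0.933). LAMA3 was at 1.405 and 1.74 FPKM in DOX libraries and at 1.95 and 3.61 FPKM in noDOX libraries, a log2 difference of -0.52 (SE 0.29; limma, adjusted p = 0.971). Relative to LAMB1, LAMB3 had a ratio of 0.0352 and 0.0992 in DOX libraries and 0.124 and 0.143 in noDOX libraries, a pair chosen after the values were seen. LAMB3 over LAMA3 was 3.62 and 4.85 in DOX libraries and 4.53 and 3.97 in noDOX libraries, which overlapped.

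**Figure D4:**
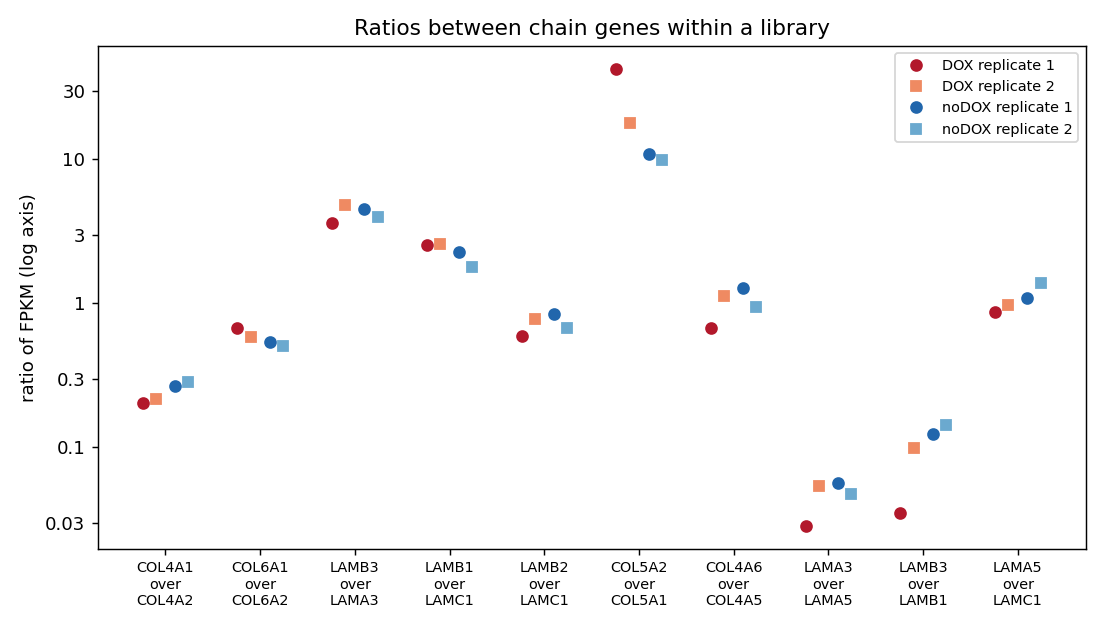
Ratio of FPKM between pairs of chain genes within each library, on a log axis, with DOX libraries left of noDOX libraries for each pair. COL4A1 over COL4A2 is lower in both DOX libraries, COL5A2 over COL5A1 and LAMB1 over LAMC1 are higher in both, and LAMB3 over LAMA3 overlaps; the last 5 pairs were chosen after the values were seen.

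Of the linkers and proteoglycans of the basement membrane, only NID1 had separate groups. HSPG2, which encodes perlecan, was at 31.7 and 12.3 FPKM in DOX libraries 1 and 2 and at 6.53 and 23.2 FPKM in noDOX libraries 1 and 2. With a transcript of 14327 bases it was the longest of the 31 genes, and its noDOX libraries differed 3.56 times. It shares 2121 exon bases with LDLRAD2 on the other strand. AGRN, which encodes agrin, was at 70.9 and 46.9 FPKM in DOX libraries and at 53.0 and 113 FPKM in noDOX libraries. Neither passed (limma, adjusted p = 0.999 for each), and HSPG2 changed sign without noDOX library 1 (-0.21) and without DOX library 1 (-0.02).

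FN1, which encodes fibronectin, was the most abundant of the 31 genes in every library. It was at 1448 and 555 FPKM in DOX libraries 1 and 2 and at 408 and 1140.2 FPKM in noDOX libraries 1 and 2. Its lowest value exceeded the highest value of any other of the 31 genes, which was TGFBI at 162 FPKM in noDOX library 2. Each group held a high and a low library, and the log2 difference of 0.39 was smaller than its standard error of 0.77. FN1 made up 71.1 and 55.2% of the summed FPKM of the 31 genes in DOX libraries and 46.9 and 58.1% in noDOX libraries, so the sum, 2035 and 1004 FPKM in DOX libraries and 871 and 1962 FPKM in noDOX libraries, largely tracked FN1. TGFBI made up 0.993 and 6.66% of the sum in DOX libraries and 13.0 and 8.24% in noDOX libraries. After FN1, by mean level, came LAMB1, TGFBI, AGRN, LAMA5 and LAMC1, and the libraries of each neighbouring pair in that order overlapped.

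VCAN, a large proteoglycan of provisional matrix, was at 0.790 and 0.405 FPKM in DOX libraries and at 0.767 and 3.75 FPKM in noDOX libraries. It passed the filter only through noDOX library 2. TNC, tenascin-C of remodelling tissue, was at 0.0685 to 0.126 FPKM over the 4 libraries. Of the lysyl oxidases, which crosslink collagen, LOXL2 was at 7.07 and 25.5 FPKM in DOX libraries 1 and 2 and at 24.02 and 33.7 FPKM in noDOX libraries 1 and 2. DOX library 1 was low and DOX library 2 lay between the noDOX libraries, and the log2 difference was -1.01 (SE 0.62; limma, adjusted p = 0.986). Without DOX library 1 the value was -0.15, and without DOX library 2 it was -1.87. LOX was at 0.102 to 0.229 FPKM over the 4 libraries. Among the 24 tested genes, DOX library 2 exceeded DOX library 1 by the widest factors in LOXL2 (3.61 times) and TGFBI (3.31 times).

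The sign of the difference held in all 4 fits that left out 1 library for 13 of the 24 genes, 5 higher and 8 lower with doxycycline. The 5 higher were SPARC, NID1, COL5A2, COL4A2 and LAMB1. The 8 lower were the 6 genes with separate groups together with LOXL2 and VCAN. Where groups are separate, leaving out 1 library cannot change the sign. The outcome was thus fixed in advance for those 6 genes and for SPARC and NID1. It was fixed in the same way for the 32.0% of all genes tested with separate groups. How many of all genes tested kept their sign was not counted. Without SPARC and VCAN, which passed the filter through 1 group or 1 library, the counts were 4 higher and 7 lower. The other 11, among them FN1, HSPG2, LAMA5, AGRN and both tested collagen VI chains, changed sign in at least 1 of these fits. With a smooth trend on transcript length removed from each library, an alternative chosen after seeing the data, the groups did not overlap in 11 of 24 genes, 4 higher (SPARC, NID1, COL5A2 and COL4A2) and 7 lower (the same 6 and VCAN), 45.8% of the 24 beside 36.1% of all genes tested in that fit. Without SPARC and VCAN these were 3 higher and 6 lower. The median was then -0.34, and 0 of 24 passed (limma, smallest adjusted p = 0.360).

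Other genes of the matrix, 161 in 6 lists, showed a similar absence of calls. Of the 75 tested, 26 had higher and 49 lower mean log2 values with doxycycline, the median log2 difference was -0.13, and 0 were called by limma (11 at an unadjusted p under 0.05). The groups did not overlap in 12 higher and 22 lower genes, 45.3% of the 75, beside 32.0% of all genes tested. These counts include FBLN2, FBN2 and ADAMTS2, which passed the filter only through the group where they were high. FBLN2 is also among the 11. All 5 tested other collagens had lower mean log2 values, with 3 separate. Over all genes tested, 56.1% were lower and 17.3% were both lower and separate. COL4A6, an epithelial type IV chain, was at 8.16 and 10.02 FPKM in DOX libraries 1 and 2 and at 16.4 and 16.7 FPKM in noDOX libraries 1 and 2 (log2 difference -0.80, SE 0.19; limma, adjusted p = 0.566). COL4A5, its trimer partner, was at 12.1 and 8.97 FPKM in DOX libraries and at 12.8 and 17.8 FPKM in noDOX libraries, and COL27A1, a fibrillar collagen, was at 6.01 and 5.77 FPKM in DOX libraries and at 7.35 and 11.9 FPKM in noDOX libraries. COL4A4 was at 1.74 and 0.912 FPKM in DOX libraries and at 1.022 and 2.997 FPKM in noDOX libraries, which overlapped.

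Of 6 other laminin and basement membrane genes tested, 4 were higher and 2 lower. NID2, the second nidogen, was at 11.2 and 4.35 FPKM in DOX libraries 1 and 2 and at 0.797 and 2.45 FPKM in noDOX libraries 1 and 2, so that both nidogen genes had separate groups in the same direction. The NID2 log2 difference came to 1.70 (SE 0.53; limma, adjusted p = 0.679), and the gene shares 1915 exon bases with a gene on the other strand. DAG1, the laminin receptor dystroglycan, averaged 25.7 ± 9.8 FPKM in DOX libraries and 15.6 ± 4.8 FPKM in noDOX libraries (SD, n = 2 each). FRAS1, a basement membrane protein of epithelia, averaged 6.73 ± 4.53 FPKM in DOX libraries and 2.97 ± 0.86 FPKM in noDOX libraries. Both genes overlapped, since noDOX library 2 was above DOX library 2. NTN4, a netrin that binds laminin, averaged 37.7 ± 0.1 FPKM in DOX libraries and 51.5 ± 11.05 FPKM in noDOX libraries.

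Of 21 other glycoproteins and matricellular genes tested, 7 were higher and 14 lower. VTN, which encodes vitronectin, a liver-made adhesive glycoprotein, was at 217 and 185 FPKM in DOX libraries 1 and 2 and at 40.9 and 46.1 FPKM in noDOX libraries 1 and 2. The groups were far apart, with a log2 difference of 2.18 (SE 0.27; limma, adjusted p = 0.219). FBLN2, a fibulin of basement membranes and elastic fibres, was at 2.42 and 2.13 FPKM in DOX libraries and at 0.0332 and 0.0557 FPKM in noDOX libraries, and passed the filter only through the DOX libraries, so it had to differ and its test is not given. CTGF, a matricellular growth factor induced by TGF-β and YAP, and IGFBP7 had lower DOX values, with log2 differences of -1.03 (SE 0.17; limma, adjusted p = 0.374) and -1.35 (SE 0.30; limma, adjusted p = 0.520). VTN shares 329 exon bases with another gene model, and IGFBP7 shares exon bases with POLR2B on the other strand.

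Of 27 enzymes of collagen folding, processing and crosslinking tested, 11 were higher and 16 lower, with a median of -0.12. FKBP10, a prolyl isomerase of the endoplasmic reticulum that acts on procollagen, was at 16.0 and 23.1 FPKM in DOX libraries 1 and 2 and at 35.3 and 32.7 FPKM in noDOX libraries 1 and 2. TGM2, a transglutaminase that crosslinks fibronectin, averaged 28.6 ± 15.4 FPKM in DOX libraries and 67.01 ± 25.4 FPKM in noDOX libraries (SD, n = 2 each), with separate groups. LEPREL2, a prolyl hydroxylase of collagen, had a log2 difference of -0.43 (SE 0.18), and CTAGE5, which helps load collagen into transport carriers, one of 0.78 (SE 0.28). None passed (limma, adjusted p = 0.705 to 0.858).

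Of 12 proteoglycans and glycosaminoglycan receptors tested, 4 were higher and 8 lower. SDC4, a syndecan of focal adhesions, averaged 43.0 ± 14.6 FPKM in DOX libraries and 21.9 ± 7.8 FPKM in noDOX libraries (SD, n = 2 each). GPC1, a glypican, averaged 44.7 ± 7.6 FPKM in DOX libraries and 30.8 ± 4.4 FPKM in noDOX libraries. SRGN, serglycin, averaged 113 ± 7 FPKM in DOX libraries and 81.1 ± 6.5 FPKM in noDOX libraries. All 3 had separate groups with the DOX libraries higher, as did 14.7% of all genes tested. CD44, the hyaluronan receptor, averaged 34.9 ± 11.4 FPKM in DOX libraries and 55.8 ± 17.9 FPKM in noDOX libraries and was lower in both DOX libraries, by a narrow margin between DOX library 1 (43.0 FPKM) and noDOX library 1 (43.1 FPKM). The 4 tested genes of a list of matrix receptors (BCAM, RPSA, DDR1 and the integrin subunit ITGB4) had lower mean log2 values, from -0.53 in BCAM to -0.02 in ITGB4, and overlapping groups (limma, adjusted p = 0.999 for each), and RPSA has many processed copies that can share reads.

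**Figure D5:**
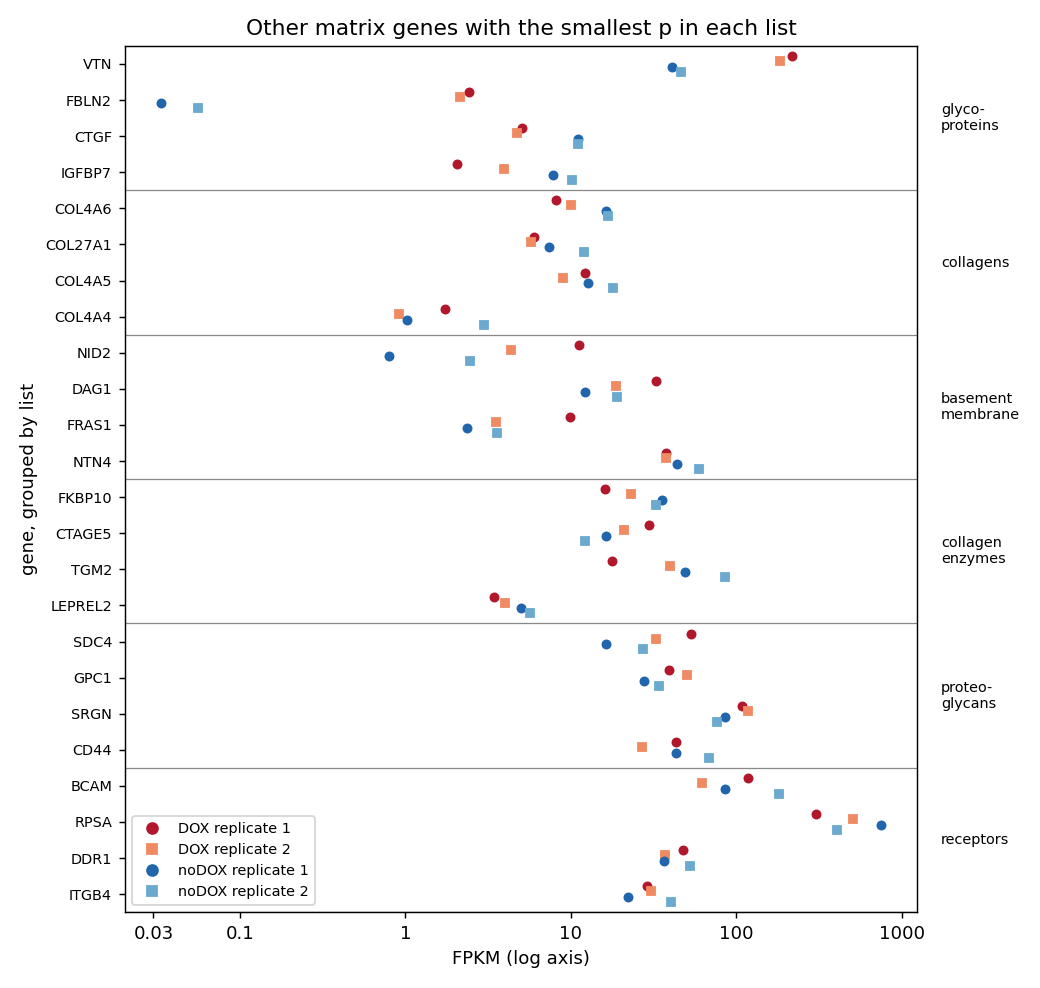
FPKM (log axis) in each library of the 4 genes with the smallest p in each of 6 lists of other matrix genes. VTN and FBLN2 have both DOX libraries far above both noDOX libraries, CTGF and COL4A6 have both DOX libraries below, and all 4 matrix receptors overlap.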

How the data were processed

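The series holds 4 poly(A) RNA-seq libraries of A549 cells, 2 DOX and 2 noDOX. The authors deposited gene-level FPKM values, 1 column per library. The submitters' processing notes name TopHat2 2.0.10, Bowtie, Cufflinks 2.2.1, Cuffdiff and hg19; the sources used here do not give the annotation, strand setting or filters. FPKM without counts leaves depth unknown, so no counting interval is given, and genes that overlap on opposite strands are uncertain.

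Differences, DOX minus noDOX, were tested with limma 3.58.1 (R 4.3.3) on log2(FPKM + 1), with moderation following a mean trend and 2 residual degrees of freedom, over the 12504 genes that averaged 1 FPKM or more. This scale understates the change of low genes. P-values were Benjamini-Hochberg adjusted over all genes tested at a threshold of 0.05, and the test was checked on simulated data. The 31 genes and the other lists were chosen with earlier results of these data known. Full statistics are given for up to 8 genes per direction with the smallest unadjusted p among those whose groups do not overlap, and for GATA4; up to 4 genes of each other list with the smallest p are named with values; 1 further gene of the rule is not reported here; further overlapping genes among the 31 are described for their role. Transcript lengths are of the longest coding transcript, and exon overlaps are from GENCODE 29; promoter sequences are from RefSeq, which matched 24 of the 31 genes. Only the bases before each start were used. TATAAA was added after the other motifs. Alternatives covered pseudocount, filter, scaling, moderation, replicate block, transcript length and each library left out.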

Additional observations from a re-analysis of the deposited data

How the results depend on the processing

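With limma, 11 genes were called over the whole table, 10 of them small RNA genes, and 0 of the 24 matrix genes. The whole-table count was 1 with no filter on low values, 3 after rescaling to a common sum that omits small RNA genes, 1 after dropping those genes from the test, and 41 to 63 with 1 library left out, where the lone library is assumed to vary like the other group. With the replicate number as a block it was 65, and 0 matrix genes were called. Same-numbered libraries deviated in opposite directions (correlation -0.35 over 12504 genes and -0.76 without small RNA genes), and DOX 1 deviated with noDOX 2. Whether a number marks a shared culture is not stated in the labels and was not tested. Crossing the numbers, chosen after seeing the data, gave 7 calls. Without small RNA genes it gave 886 calls among 12112 genes tested, with 3 among the 24 matrix genes (SPARC, COL5A2 and COL4A2). Of these, SPARC had passed the filter only through the DOX libraries. Removing a smooth trend on transcript length, also chosen after seeing the data, gave 7 calls, and 0 without small RNA genes (limma; 943 at an unadjusted p under 0.05). The number of matrix genes whose groups do not overlap, 8 in the fit reported, was 4 of the 16 tested with a filter at a mean of 5 FPKM, 5 of 24 after the common-sum rescaling (COL1A1, COL7A1, NID1, SPARC and TGFBI) and 15 to 18 of 24 with 1 library left out, where fewer values make separation easier. The share of all genes moved with it, at 30.5%, 21.6% and 51.6 to 78.7%. That rescaling moved the median of all genes from -0.04 to 0.07 and the split of matrix genes to 11 higher and 13 lower, with COL6A1 and LAMB2 changing direction. Of the 8 genes with separate groups, the 7 other than SPARC kept their direction in all 123 values under up to 18 alternatives. Separate groups fix the sign under most of these, and only the rescaling and length-trend alternatives could have reversed it. In fits that kept all libraries, 0 of the values of these 7 genes passed the threshold (limma). The cause of the shifts between settings was not tested. With 2 libraries a group and unknown depth, large differences could also go uncalled. GATA4 did so at a log2 difference of 2.09 (limma, adjusted p = 0.289). The absence of calls among the matrix genes therefore does not show that they were unchanged.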
